A study of Mus musculus with 6 samples.

Results

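Collagens are the proteins of the fibres and sheets on which cells sit, and their genes carry symbols that begin with Col. Every gene whose platform symbol had the form Col, a number, the letter a and a number was taken, which gave 41 collagen genes out of 19057 genes on the array, measured by 91 probes. All 41 matched a current gene record by gene number under an unchanged symbol. The probe with the highest mean over the 6 arrays stood for each gene. Col6a3, Col12a1, Col20a1 and Col21a1 had no probe under those symbols and are not described.

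RNA of primary mouse myoblasts, the muscle precursor cells that grow out of dissociated hind limb muscle, was read on 6 Illumina whole genome bead arrays, with 3 arrays of WT cells and 3 of Rev-/- cells by the labels. Rev-/- stands for loss in the whole animal of Rev-erbα (gene Nr1d1), a nuclear receptor that represses clock genes. The labels give male C57BL/6 mice aged 6 weeks, where the methods give 4 weeks, and growth in 20% fetal bovine serum with 5 ng/ml bFGF. The muscle was digested with collagenase, the cells were grown on collagen-coated dishes with pre-plating to remove fibroblasts, and they were expanded for 6 passages. Coating adds protein and not mouse RNA. The methods speak of independent samples, and no source used here says whether each array came from a separate animal.

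A collagen molecule is a triple helix of 3 alpha chains, each made by a gene of its own or several by the same gene. Fibrillar collagens form the cables of connective tissue, type IV collagens the sheet of the basement membrane that wraps each muscle fibre and its satellite cell, type VI collagens beaded filaments next to that sheet, and FACIT collagens sit on the surface of fibrils. Types II, IX, X and XI are made mainly in cartilage. In muscle most fibrillar collagen is known to come from fibroblasts of the connective tissue, while muscle cells contribute to the basement membrane.

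Values are log2 intensities after quantile normalization, which gives every array the same distribution. They carry the scanner background, so that a fold change of a dim probe is understated. A probe counted as above background where it passed 6.72, and 34 of the 41 collagens did so on at least 3 arrays and were tested, 29 of them on all 6 arrays. The other 7 were Col4a3, Col4a4, Col4a6, Col6a4, Col6a5, Col6a6 and Col10a1, of which the 3 minor type VI chains passed on no array. Levels of different probes are not compared with each other.

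The arrays were checked against their labels and the cell type. Nr1d1 was at 6.59, 6.54 and 7.21 on arrays WT 1, 2 and 3 and at 7.01, 6.51 and 7.14 on arrays Rev-/- 1, 2 and 3. It did not follow the labels (log2 fold change 0.11, SE 0.22, exact permutation p = 1, 2-sided, where 3 against 3 arrays cannot go below 0.1), where its probe lies relative to the deletion was not examined, and each direction below is one between arrays as labelled. Array Rev-/- 1 stood apart, since its correlation with the rest averaged 0.978 and that of each other array 0.988 to 0.990. Of 7 satellite cell and myoblast markers, Pax7 and Myf5 were above background on no array and the other 5 on all. All 6 fibroblast, all 5 endothelial and all 5 differentiated muscle markers were above background on every array. The differentiated muscle markers lay far above it, from 13.68 for Tnnt3 to 14.67 for Myh8, both on Rev-/- 1. The mix of cells behind the RNA was not tested. In bulk RNA, fewer cells of a type and less RNA per cell cannot be told apart.

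The sequences in front of the collagen genes that differed most between arrays are shown for the members in the RefSeq promoter table (GRCm38.p6), which held 33 of the 41 genes in 36 windows and not Col2a1 or Col1a1. Each line has the 120 bases before a transcription start, 5′ to 3′ on the gene's strand, with motifs in capitals. AGGTCA, which reads TGACCT on the opposite strand, is the core element of Rev-erb and ROR receptors, and CCAAT is a general promoter element.
Col9a2 (chr4:121039446-121039565, plus strand, no motif): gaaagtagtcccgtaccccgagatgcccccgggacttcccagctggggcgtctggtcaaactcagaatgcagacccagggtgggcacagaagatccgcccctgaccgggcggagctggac
Col9a1, upstream start (chr1:24177490-24177609, plus strand, AGGTCA on the minus strand from -28): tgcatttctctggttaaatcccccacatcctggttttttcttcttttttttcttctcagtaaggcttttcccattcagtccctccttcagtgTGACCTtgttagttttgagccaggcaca
Col9a1, downstream start (chr1:24195083-24195202, plus strand, CCAAT from -18): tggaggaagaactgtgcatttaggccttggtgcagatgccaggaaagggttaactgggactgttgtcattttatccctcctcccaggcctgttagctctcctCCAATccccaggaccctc
Col1a2 (chr6:4505498-4505617, plus strand, CCAAT from -109): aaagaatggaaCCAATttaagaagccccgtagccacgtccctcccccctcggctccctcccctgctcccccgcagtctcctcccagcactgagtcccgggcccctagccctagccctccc

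Over the 250 bases before each start and on both strands, AGGTCA was found in 7 of the 36 collagen windows (Col11a1, Col23a1, Col24a1, Col4a4, Col6a5, Col7a1 and Col9a1), against 14.0% of all 32851 promoters. CCAAT was found in 13 of 36, against 33.8%. TATAAA, the TATA box, was found in 5 of 36 (Col3a1, Col10a1, Col11a2, Col13a1 and Col17a1), against 12.4%. A match of letters is a description and does not show a bound site.

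No collagen was called between the labels. With limma and Benjamini-Hochberg adjustment over all 18158 kept probes with 1 gene symbol, 0 of 34 collagens and 0% of the 11636 genes tested passed an adjusted p of at most 0.05 with a fold of at least 1.5, and the smallest adjusted p was 0.997 for the collagens and for all probes. An unadjusted p of 0.05 or less was reached by 0 of 34 collagens, beside 3.18% of all genes. No collagen differed by 1.5-fold or more in either direction, beside 0.318% of all genes. The log2 fold changes, Rev-/- minus WT, ran from -0.25 to 0.36.

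By sign, 25 of 34 collagens were higher on the arrays labelled Rev-/-, beside 47.8% of all genes, with a median log2 fold change of 0.062 against -0.0050. Without array Rev-/- 1 the count was 21 of 34, beside 47.9%, and the median 0.016. The sign of the median also rests on the scaling. With array medians aligned in place of quantile normalization, the median of all genes moved to -0.11 and that of the collagens to -0.064, which is 0.044 above all genes, against 0.067 above them with quantile normalization. The arrays of the labels did not overlap in 2 collagens, both higher under Rev-/- (3.54% of all genes), and in 0 collagens lower (4.55%), 2 of 34 in either direction beside 8.09% of all genes.

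**Figure D1:**
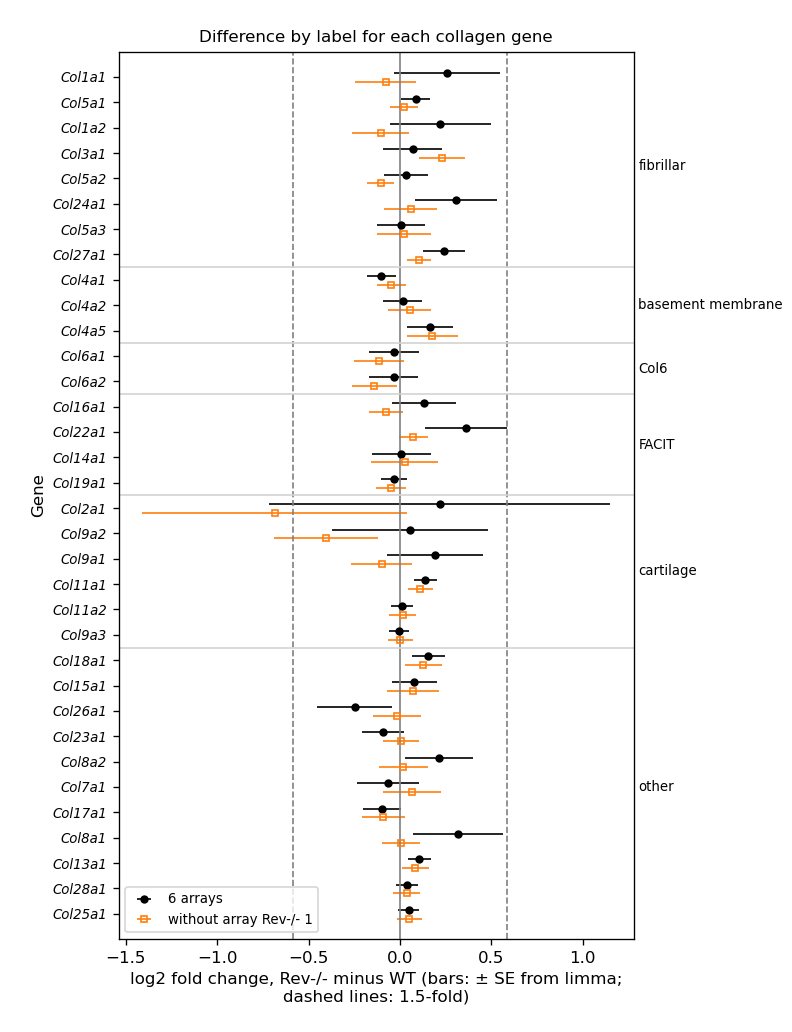
Log2 fold change, Rev-/- minus WT, of each of the 34 tested collagen genes (horizontal axis, bars ± SE from limma), grouped by class, with all 6 arrays (filled circles) and without array Rev-/- 1 (open squares). Dashed lines mark a fold of 1.5, which no filled circle reaches, and Col2a1 has the widest bar, with an SE of 0.93.

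The spread of the collagens over the 6 arrays was read next. The arrays spanned a median of 0.51 log2 units in the collagens and 0.29 in all genes. In 8 of 34 collagens the span was at least 1 log2 unit, beside 2.05% of all genes. These were Col2a1, Col9a1 and Col9a2 of cartilage, the fibrillar Col1a1, Col1a2 and Col24a1, the FACIT Col22a1 and the network collagen Col8a1. In Col2a1 the SD was wide within both labels, at 0.93 under WT and 1.96 under Rev-/-. In Col1a2, Col22a1 and Col8a1 it was 0.091 to 0.12 under WT and 0.50 to 0.63 under Rev-/-, where array Rev-/- 1 lay apart.

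Array Rev-/- 1 held the highest value of all 8. It was the highest array for 16 of 34 collagens, beside 21.8% of all genes. On it 10 of 34 collagens lay at least 0.5 log2 above the mean of the other arrays, beside 3.34% of all genes, and 1 lay as far below, beside 1.28%. The 10 were the 8 above with Col8a2 and Col16a1, and the 1 below was Col26a1. On no other array did more than 2 of the 34 collagens lie that far above the rest. The 2 were on WT 1, beside 0.55% of all genes. On array Rev-/- 2, 4 of 34 lay that far below, beside 0.885% of all genes.

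**Figure D2:**
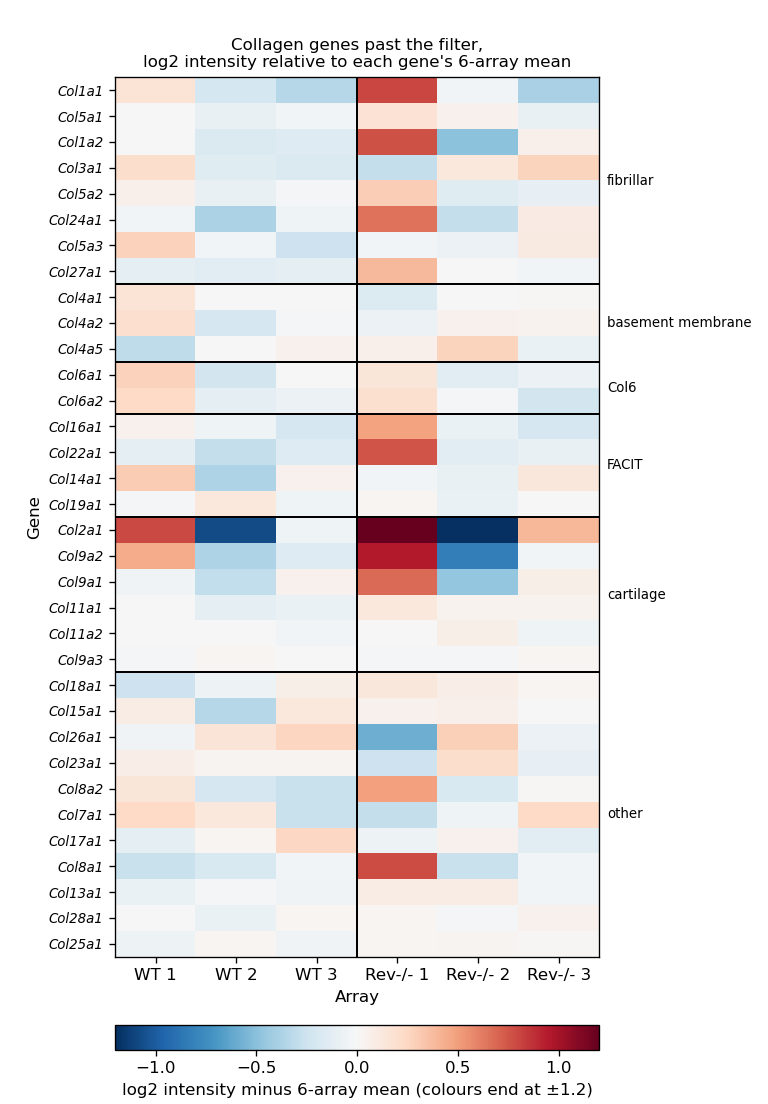
Log2 intensity of the 34 tested collagen genes (rows, by class) on the 6 arrays (columns), as the difference from each gene's mean over the arrays, with red above and blue below and the colours ending at ±1.2. The column of Rev-/- 1 holds the highest value of 16 genes, and the rows of Col2a1 and Col9a2 hold both red and blue within each label.

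The widest spans of the 34 tested collagens were those of the cartilage genes Col2a1 and Col9a2, and they lay within each label. Over the 6 tested cartilage members the log2 fold change was 0.097 at the median, and -0.049 without array Rev-/- 1. Col2a1, the chain of the main cartilage fibril, was at 11.27, 9.41 and 10.43 on arrays WT 1, 2 and 3 and at 12.39, 8.50 and 10.88 on arrays Rev-/- 1, 2 and 3. The highest and the lowest array were both labelled Rev-/-, so the labels overlapped fully, and the span of 3.90 log2 units was 14.9-fold. Its log2 fold change was 0.22 (SE 0.93, unadjusted p = 0.822, limma), from 10.37 ± 0.93 (SD, n = 3) under WT to 10.59 ± 1.96 (SD, n = 3) under Rev-/-. It was -0.68 without array Rev-/- 1, -0.26 without WT 2 and 1.26 without Rev-/- 2. The other 2 probes of Col2a1 put the 6 arrays in the same order, with values of 12.17 and 11.74 on Rev-/- 1 and of 8.26 and 8.005 on Rev-/- 2.

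Col9a2, a chain of the type IX collagen that coats type II fibrils, was at 8.28, 7.46 and 7.68 under WT and at 8.78, 7.003 and 7.80 under Rev-/-. It put the arrays in the same order as Col2a1, from Rev-/- 1 through WT 1, Rev-/- 3, WT 3 and WT 2 down to Rev-/- 2. Col9a1, another chain of the same trimer, was at 6.91, 6.67 and 7.01 under WT and at 7.64, 6.49 and 7.03 under Rev-/-. It was also highest on Rev-/- 1 and lowest on Rev-/- 2, and it was not above background on WT 2 and Rev-/- 2. The log2 fold changes were 0.055 (SE 0.42) for Col9a2 and 0.19 (SE 0.26) for Col9a1, and -0.41 and -0.10 without array Rev-/- 1.

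The other cartilage members lay near background. Col10a1, the collagen of hypertrophic cartilage, was at 7.30 on array Rev-/- 1 and at 6.55 to 6.65 on the other 5, so that it passed the limit on that array alone and was not tested. Col11a2, a type XI chain, ran from 6.74 to 6.86 and Col9a3 from 6.70 to 6.75 over the 6 arrays. Col11a1, the type XI chain that nucleates cartilage fibrils, was at 6.81, 6.70 and 6.74 under WT and at 6.94, 6.86 and 6.86 under Rev-/-. Its labels did not overlap, and its unadjusted p of 0.0598 (limma, log2 fold change 0.14, SE 0.062) was the smallest of the collagens. Its other 2 kept probes had log2 fold changes of 0.042 and 0.025 with overlapping labels.

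Other genes of cartilage shared the highest and the lowest array of these collagens. Of 9 cartilage cell markers on the array, 6 were tested, and all 6 were highest on Rev-/- 1 and lowest on Rev-/- 2, while Cnmd, Epyc and Matn3 were above background on no array. Matn1, which codes for the cartilage matrix protein matrilin, was at 7.33, 6.81 and 7.18 under WT and at 8.86, 6.72 and 7.25 under Rev-/-, in the array order of Col2a1. Mia, a protein secreted by cartilage cells, had that order too, while Acan, Comp, Hapln1 and Sox9 ordered the 4 arrays in between otherwise. Sox9, the transcription factor that drives Col2a1 in cartilage cells, was at 9.002, 8.74 and 8.95 under WT and at 9.68, 8.18 and 8.89 under Rev-/-. Relative to each gene's mean, the median of the 6 markers was 0.92 on Rev-/- 1 and -0.60 on Rev-/- 2 and lay between -0.36 and -0.024 on the other 4 arrays. The part of cartilage cells in the collagen values was not tested.

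**Figure D3:**
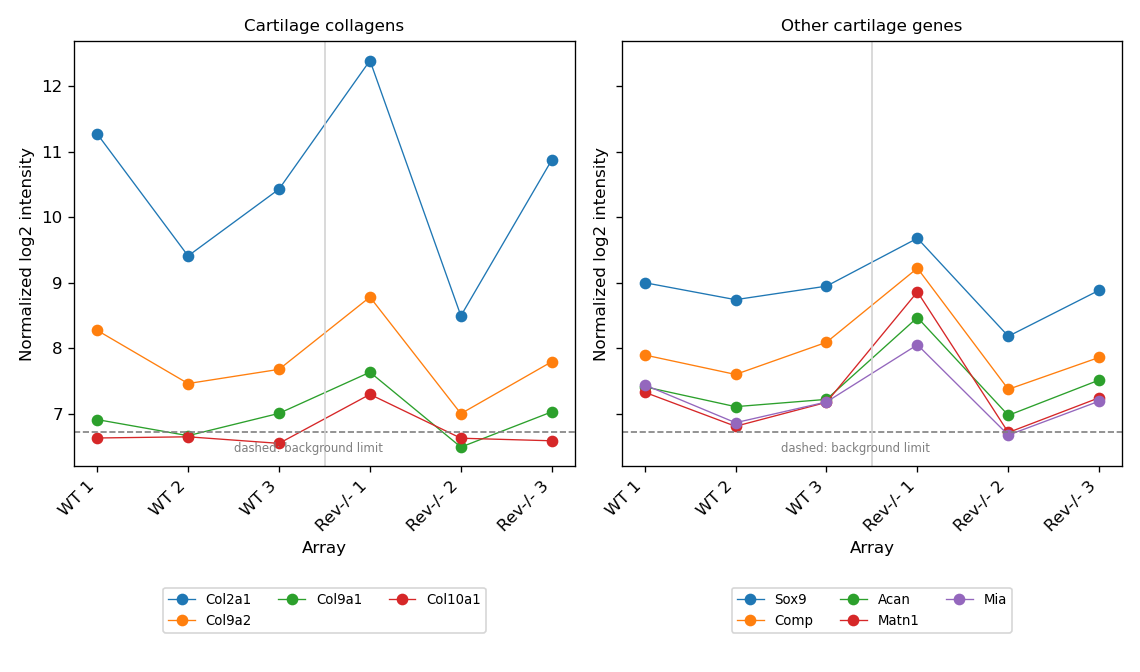
Normalized log2 intensity on each of the 6 arrays of 4 cartilage collagens (left) and 5 other cartilage genes (right), with 1 point per gene and array, lines that join a gene's points only to guide the eye, and the background limit of 6.72 dashed. Col2a1 runs from 8.50 on Rev-/- 2 to 12.39 on Rev-/- 1, and all genes shown are highest on Rev-/- 1.

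Fibrillar collagens had positive log2 fold changes in 8 of 8 genes, with a median of 0.15, but in 5 of 8 with a median of 0.022 without array Rev-/- 1. With array medians aligned their median was -0.072, beside -0.11 for all genes. Col1a1, the main chain of type I collagen, was at 13.26, 12.88 and 12.74 under WT and at 13.89, 13.06 and 12.70 under Rev-/-. Its partner chain Col1a2 was at 11.37, 11.20 and 11.22 under WT and at 12.14, 10.88 and 11.43 under Rev-/-. Both were highest on Rev-/- 1, by 1.95-fold and 1.89-fold over the mean of the other arrays, and both had their lowest value on another array labelled Rev-/-. The log2 fold changes were 0.26 (SE 0.29) for Col1a1 and 0.22 (SE 0.28) for Col1a2, and -0.077 and -0.11 without array Rev-/- 1.

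Col3a1, the fibrillar collagen that forms mixed fibrils with type I, did not share this pattern. It was at 10.06, 9.70 and 9.68 under WT and at 9.56, 9.97 and 10.11 under Rev-/-, and so lowest on Rev-/- 1. Col3a1 lies 24624 bases from Col5a2 on chromosome 1 (GRCm38.p6, as for the other distances). Col5a2, a type V chain, was at 8.54, 8.39 and 8.46 under WT and at 8.77, 8.34 and 8.38 under Rev-/-. By this probe it was highest on the array where Col3a1 was lowest. The other kept probe of Col5a2 was highest on Rev-/- 2, at 7.80, and was at 7.67 on Rev-/- 1. The other kept probe of Col3a1 was lowest on Rev-/- 1 too, at 8.26. The log2 fold changes were 0.070 (SE 0.16) for Col3a1 and 0.033 (SE 0.12) for Col5a2, and 0.23 and -0.11 without Rev-/- 1. Of the 6 fibroblast markers, Dpt, Mfap5 and Clec3b were lowest on Rev-/- 1 as Col3a1 was, Lum was highest there, and Dcn and Pdgfra were lowest on Rev-/- 2.

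The type V chains differed little. Col5a1, which joins type I fibrils and limits their width, was at 12.40, 12.31 and 12.36 under WT and at 12.57, 12.45 and 12.31 under Rev-/- (log2 fold change 0.086, SE 0.080, and 0.023 without Rev-/- 1). Col5a3 was at 7.68, 7.37 and 7.16 under WT and at 7.37, 7.33 and 7.51 under Rev-/-. In Col5a1 and Col5a3 the labels overlapped, and no array stood far from the rest.

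Col24a1, a fibrillar collagen known from developing bone, was at 7.89, 7.55 and 7.87 under WT and at 8.57, 7.63 and 8.02 under Rev-/-. Its log2 fold change was 0.31 (SE 0.22) with all arrays and 0.058 without array Rev-/- 1. Col27a1, a fibrillar collagen of cartilage, was at 7.22, 7.19 and 7.23 under WT and at 7.73, 7.33 and 7.30 under Rev-/-. The labels did not overlap in Col27a1 (log2 fold change 0.24, SE 0.12, unadjusted p = 0.0738, limma), but its other 2 kept probes had 0.063 and -0.041 with overlapping labels, and without array Rev-/- 1 its own value was 0.10.

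Markers of bone and of neutrophils were highest on the same array as the type I chains. Of 8 bone cell markers on the array, 6 were tested, and all 6 were highest on Rev-/- 1. Among them were Bglap2, an osteocalcin gene, at 12.21 against 6.74 to 7.71 on the other arrays, and Sp7, the osteoblast transcription factor, at 9.94 against 6.70 to 6.84. The untested Dmp1 and Phex were at 6.79 and 7.52 on Rev-/- 1, their highest array. Relative to each gene's mean, the median of the 6 tested bone markers was 3.26 on Rev-/- 1 and between -0.78 and -0.45 on the others. Ctsk, which codes for the collagen-degrading protease cathepsin K, was at 12.49 on Rev-/- 1 against 9.74 to 9.99. The other 3 osteoclast markers did not pass the background limit on 3 or more arrays and were not tested, and 1 of them passed on none. All 7 neutrophil markers were highest on Rev-/- 1 too, with a median of 2.75 there and between -1.05 and 0.063 on the other arrays. Of the 2 red cell markers tested, Alas2 was highest on Rev-/- 1 and Hba-a1 on WT 3. The part of these cells in the collagen values was not tested.

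**Figure D4:**
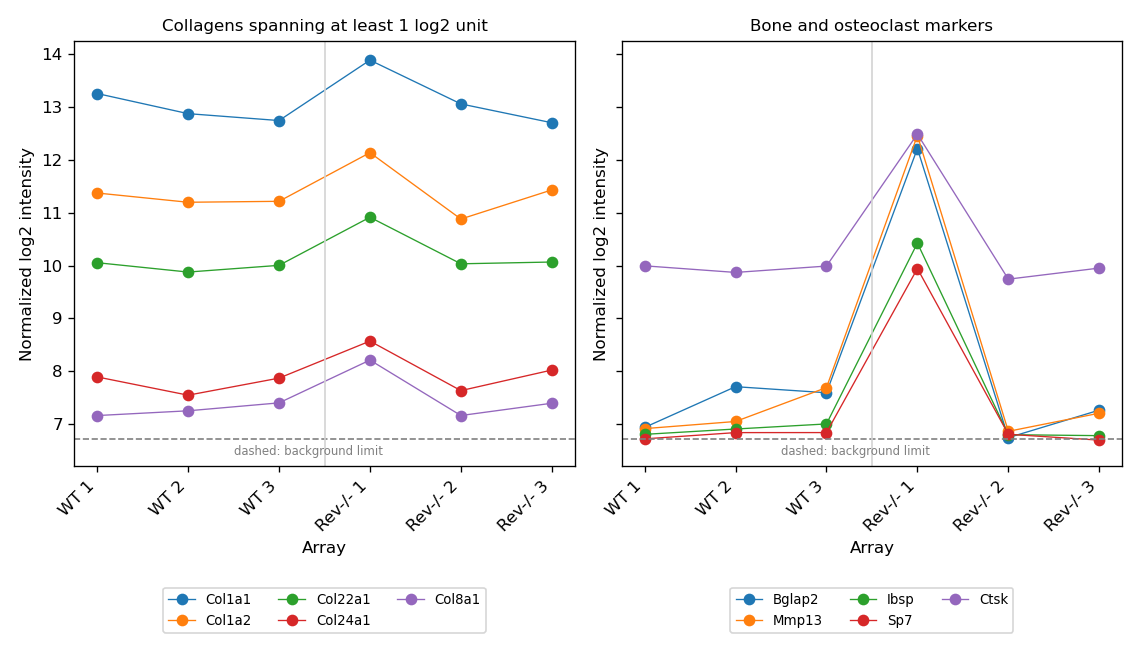
Normalized log2 intensity on each of the 6 arrays of the 5 collagens outside cartilage that spanned at least 1 log2 unit (left) and of 5 bone and osteoclast markers (right), with lines that join a gene's points only to guide the eye and the background limit of 6.72 dashed. All 10 genes are highest on Rev-/- 1, by 1.71-fold to 1.95-fold over the mean of the other arrays in the collagens.

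The basement membrane collagens did not follow that array. Col4a1, with Col4a2 the common chain of type IV collagen, was at 13.13, 12.97 and 12.97 under WT and at 12.81, 12.97 and 12.99 under Rev-/-, highest on WT 1 and lowest on Rev-/- 1. Col4a2 was at 12.27, 11.86 and 12.04 under WT and at 11.99, 12.11 and 12.11 under Rev-/-, within the span of the WT arrays throughout. Col4a1 and Col4a2 lie head to head on chromosome 8, where their annotated ranges overlap by 85 bases. Their log2 fold changes were -0.10 (SE 0.079) and 0.014 (SE 0.11), and -0.047 and 0.053 without Rev-/- 1, and the labels overlapped in both.

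Col4a5, a chain of a type IV network found in some basement membranes, was at 7.16, 7.47 and 7.51 under WT and at 7.52, 7.73 and 7.38 under Rev-/- (log2 fold change 0.16, SE 0.12). Its lowest array was WT 1 and its highest Rev-/- 2. Its neighbour Col4a6, whose start lies 1274 bases away on the X chromosome, and the head-to-head Col4a3 and Col4a4 each passed the background limit on 1 array only. The median of the 3 tested type IV genes was 0.014 with all arrays and 0.053 without Rev-/- 1.

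The type VI pair was highest on the same arrays. Col6a1 was at 12.80, 12.30 and 12.51 under WT and at 12.66, 12.39 and 12.45 under Rev-/-. Col6a2 was at 10.79, 10.43 and 10.48 under WT and at 10.74, 10.52 and 10.33 under Rev-/-. Both chains, which assemble into 1 molecule with a further chain, were highest on WT 1 and next on Rev-/- 1, and their genes lie 85161 bases apart on chromosome 10. The log2 fold changes were -0.033 (SE 0.13) and -0.035 (SE 0.13), with a median of -0.034. Without Rev-/- 1 they were -0.11 and -0.14, with a median of -0.13, and without WT 1 both turned positive, at 0.099 and 0.075.

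For the 4 FACIT collagens the median was 0.069, and -0.013 without array Rev-/- 1. Col22a1, which is found where muscle meets tendon, was at 10.05, 9.88 and 10.004 under WT and at 10.91, 10.03 and 10.07 under Rev-/-. Array Rev-/- 1 was the only one apart, and the labels overlapped through Rev-/- 2 and WT 1. Its log2 fold change of 0.36 (SE 0.22, unadjusted p = 0.150, limma) had the greatest size of the 34 tested collagens and was 0.072 without Rev-/- 1. Col16a1 was at 11.83, 11.72 and 11.57 under WT and at 12.25, 11.69 and 11.57 under Rev-/-, with 0.13 (SE 0.17), and -0.077 without Rev-/- 1. Col14a1, which binds type I fibrils, was at 9.86, 9.19 and 9.61 under WT and at 9.52, 9.46 and 9.69 under Rev-/-, without a lead of Rev-/- 1. Col19a1 ran from 6.70 to 6.90, near background, and its gene lies 4944 bases from Col9a1. Both were lowest on Rev-/- 2, but Col19a1 was highest on WT 2 and Col9a1 on Rev-/- 1.

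The remaining 11 collagens are all those outside the classes above, among them network, anchoring, transmembrane and multiplexin types. Of the 11, 7 were higher and 4 lower under Rev-/-, with a median log2 fold change of 0.048. Col18a1, the basement membrane collagen that releases endostatin, was at 11.15, 11.34 and 11.47 under WT and at 11.53, 11.48 and 11.41 under Rev-/- (log2 fold change 0.16, SE 0.090). Its relative Col15a1, found in muscle basement membranes, was at 10.37, 9.94 and 10.41 under WT and at 10.34, 10.34 and 10.29 under Rev-/- (0.079, SE 0.12). In both the arrays labelled Rev-/- lay close together and within or next to the span of WT.

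Col8a1, a short-chain network collagen, was at 7.16, 7.25 and 7.40 under WT and at 8.21, 7.16 and 7.39 under Rev-/-. Its partner Col8a2 was at 8.42, 8.07 and 8.003 under WT and at 8.76, 8.08 and 8.28 under Rev-/-. Both were highest on Rev-/- 1, and their log2 fold changes of 0.32 (SE 0.25) and 0.21 (SE 0.19) were 0.0070 and 0.018 without it. Col26a1 went the other way on that array, at 9.23 against 9.74 to 10.10 on the others, with a log2 fold change of -0.25 (SE 0.21) and of -0.017 without Rev-/- 1. Its other kept probe, near background, did not share this, at 6.87 on Rev-/- 1 and lowest on Rev-/- 3, at 6.68. The transmembrane Col23a1 was lowest on Rev-/- 1, at 8.15 against 8.29 to 8.599. Col7a1 of the anchoring fibrils, the transmembrane Col13a1, Col17a1 and Col25a1, and Col28a1 each spanned between 0.093 and 0.53 log2 units.

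The enzymes and chaperones that process collagen were not called either. Of 29 genes for hydroxylation, folding, secretion, trimming and crosslinking, 24 were tested, 15 higher and 9 lower under Rev-/-, with a median log2 fold change of 0.060 and 0 called in either direction. An unadjusted p of 0.05 or less was reached by 1 of 24, beside 3.18% of all genes, so that a count of this size is near the background. This was Colgalt1, which adds galactose to hydroxylysine in collagen. Colgalt1 was at 9.78, 9.84 and 9.82 under WT and at 9.65, 9.54 and 9.66 under Rev-/-. All 3 arrays labelled Rev-/- lay below all WT arrays (log2 fold change -0.20, SE 0.063, unadjusted p = 0.0143, adjusted p = 0.997, limma). The difference was -0.22 without Rev-/- 1. The labels also did not overlap in P3h3 and Lox, higher under Rev-/-, and in P4ha1, lower. With Colgalt1 these were 4 of the 24 tested genes, beside 8.09% of all genes.

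P3h3, a prolyl 3-hydroxylase family member, had a log2 fold change of 0.19 (SE 0.089), P4ha1, a catalytic chain of the prolyl 4-hydroxylase that stabilizes the helix, -0.13 (SE 0.062), and Pcolce, an enhancer of procollagen trimming, 0.20 (SE 0.096). Of the 24 tested genes, 15 were highest on Rev-/- 1, among them Serpinh1, the collagen chaperone HSP47, at 12.95 against 12.39 to 12.60, and Lox, the crosslinking lysyl oxidase, at 11.09 against 10.37 to 10.58. Serpinh1 and Lox were thus highest on the array where the type I chains were highest. Of 8 collagen receptors 7 were tested, 4 higher and 3 lower, with a median of 0.013 and 0 called. The labels did not overlap in 2 of the 7, beside 8.09% of all genes. Only 1 of the 7 was highest on Rev-/- 1, beside 21.8% of all genes. This was Itga11, an integrin chain that binds type I collagen, at 9.62 there against 8.76 to 8.95 on the others. Its partner Itgb1 was lowest on Rev-/- 1, at 7.21 against 7.57 to 7.68.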

How the data were processed

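Total RNA of 3 WT and 3 Rev-/- primary myoblast samples was hybridized to Illumina Mouse WG-6 arrays. Per the methods, the authors background-subtracted the data and quantile-normalized them with lumi, and their notes name GenomeStudio, lumi and limma, without versions. The deposited values were linear intensities of 45281 probes that did not share 1 distribution (array medians 98.4 to 107), and 12 further columns, named only by array position, were not used. Quantile normalization and log2 were applied here with limma 3.58.1 (R 4.3.3). The background limit was the peak of the intensity density plus the 95th percentile of the dim-probe spread mirrored around it, 6.72. A probe was kept if 3 or more arrays lay above it, which left 21470 probes, 18158 of them with 1 gene symbol, for 11636 genes. Of all probes 34885 had 1 symbol, 18 several and 10378 none in the platform annotation.

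The comparison by label used lmFit and eBayes with no block, as the methods name none, and with Benjamini-Hochberg adjustment. The members, classes and marker lists were chosen with earlier results of these data known. Collagens given array by array were the 2 brightest of each class (all of a class with 3 or fewer), those spanning at least 1 log2 unit and those at an unadjusted p of at most 0.05. Of the processing and receptor genes the 4 of smallest p were named, and of these only Colgalt1 was given array by array. Other genes were added as context. In 22 other kept collagen probes the sign was that of the brightest probe in 16. The fit was tested on simulated data. The number of arrays, 3 per label, limits the precision, and p-values measure only the spread between these samples, which may be technical. Same-numbered arrays did not deviate together (correlations -0.14, 0.14 and 0.037), so the numbers were not taken as pairs. Alternatives were other normalizations, background correction, filters, variance models, thresholds, a block, the mean of probes and leaving out each array. Sequences came from RefSeq tables.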

Additional observations from a re-analysis of the deposited data

Results flagged for a closer look

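Of the 7 collagens that were too dim to be tested, 4 lay above the background limit of 6.72 on a single array labelled Rev-/- and on no array labelled WT. The share of all untested genes that did so was not counted, so the number is not read as a result about the collagens. Col10a1 of hypertrophic cartilage was at 7.30 on array Rev-/- 1, where the highest WT array was at 6.65. The type IV chains passed the limit by little. Col4a4 was at 6.74 on Rev-/- 2 against at most 6.70 under WT, Col4a3 at 6.73 on Rev-/- 3 against at most 6.66, and Col4a6 at 6.73 on Rev-/- 2 against at most 6.71. None of the 4 was above the limit on a second array, and groups of 3 arrays are too small for a test of a single array against its group.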

How the results depend on the processing

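No collagen, no processing or receptor gene and no probe was called under any of 20 alternative settings, the replicate number as a block among them (0 called, and 0 collagens at an unadjusted p of at most 0.05). No call could therefore be lost, and signal over background and 3 arrays per label limit what can be seen. An unadjusted p of 0.05 or less was reached by 2 of 34 collagens with array medians aligned (19.3% of all genes), 4 on the deposited values (23.2%), 2 with an intensity trend and robust prior (2.71%), 1 with normexp (2.76%), 2 of 41 with no filter (3.99%) and 1 of 38 above the limit on at least 1 array (3.18%). It was reached by 5 without Rev-/- 2 (6.30%), by 1 each without WT 1 (3.17%), WT 3 (3.25%) and Rev-/- 3 (3.40%), and by 0 without WT 2 or Rev-/- 1 and under the other settings. Collagens without overlap of the labels numbered 2, and 6 with array medians aligned, 5 on the deposited values, 1 above the limit on all arrays and 3 to 8 with an array left out. The share of all genes was not counted under these alternatives, so the counts are not read as a result about the collagens. With an array left out, fewer arrays are compared and the labels fail to overlap more easily. Of 340 values of 19 collagens under alternatives, 35 turned sign, in 12 genes, none of them called, and the cause was not tested.

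Array medians aligned and the deposited values moved the median of all genes to -0.11 and -0.15. In that order the medians were -0.064 and -0.11 for all collagens, -0.072 and -0.12 for fibrillar, -0.23 and -0.27 for basement membrane, -0.28 and -0.33 for Col6 and -0.12 and -0.17 for the remaining collagens, and -0.12 for FACIT on the deposited values. Signs turned in Col4a2 (-0.23 and -0.27), Col2a1 (-0.069 and -0.12), Col9a2 (-0.060 and -0.11), Col16a1 (-0.12 and -0.17), Col5a1 (-0.14 and -0.19), Col1a2 (-0.052 and -0.099), Col18a1 (-0.12 and -0.17) and Col15a1 (-0.17 and -0.22). Col9a2 was at -0.023 with array weights and Col6a1 at 0.0011 with cyclic loess.

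With each array left out in turn, the median ranged from 0.016 to 0.11 for all collagens, from 0.022 to 0.22 for fibrillar, from -0.085 to 0.053 for basement membrane, from -0.13 to 0.087 for Col6, from -0.013 to 0.18 for FACIT, from -0.049 to 0.31 for cartilage and from 0.0058 to 0.060 for the remaining collagens. The log2 fold change ranged from -0.085 to 0.12 for Col4a2, from -0.68 to 1.26 for Col2a1, from -0.41 to 0.48 for Col9a2, from -0.10 to 0.47 for Col9a1, from -0.15 to 0.099 for Col6a1, from -0.14 to 0.075 for Col6a2, from -0.077 to 0.26 for Col16a1, from -0.077 to 0.52 for Col1a1, from -0.11 to 0.52 for Col1a2 and from -0.071 to 0.16 for Col15a1.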
